A study of Mus musculus with 6 samples.

Results

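The core circadian clock genes were read from the deposited table of TPM (a read number scaled by transcript length and by the size of the library), in which all 10 were found by symbol among 25124 genes: Bhlhe40, Bhlhe41, Nr1d1, Nr1d2, Per1, Per2, Cry1, Cry2, Clock and Arntl. The samples were RAW264.7 cells, a mouse macrophage line, and all 6 belonged to a control line that had received a plasmid for the Cas9 nuclease with no guide RNA, made as the counterpart of an E4BP4 knockout. The 3 M1 samples had received lipopolysaccharide at 100 ng/ml and interferon-γ at 50 ng/ml, and the 3 M0 samples neither. Both groups grew in medium with 25 mM glucose and were below 15 passages. How long treatment lasted, at which hour cells were harvested and whether they were synchronised is unstated. Each value may therefore be a level at 1 phase of the clock or an average over a mix of phases. Whether M0 and M1 shared a phase is unknown. As a line derived from a tumour, RAW264.7 stands in for macrophages only in part, and the labels do not say that replicates were separate cultures, so p-values speak only of how far these 6 samples scatter, and that scatter may be technical.

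The clock is a loop of transcription and feedback. CLOCK and BMAL1, the latter encoded by Arntl, bind E-box elements together and switch on the Per and Cry genes, whose proteins return to the nucleus and repress them. Another loop runs through the nuclear receptors REV-ERBα (Nr1d1) and REV-ERBβ (Nr1d2), which repress Arntl against the activating ROR receptors, and a further one through DEC1 (Bhlhe40) and DEC2 (Bhlhe41), basic helix-loop-helix repressors that compete for the same E-boxes. Macrophages carry such a clock, and it is known for gating their inflammatory responses by time of day.

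The E-box links these loops, so the stretch before the start is shown for the 3 genes that hold one, and for Nr1d1 as a gene of the REV-ERB loop with the related E-prime box. RefSeq (GRCm38.p6, the build of the files' mm10) gave a window for 8 of the 10 genes, and none for Bhlhe40 and Per2. The windows printed are the 250 bases before the start that the deposited table gives for the gene, 5′ to 3′ on the gene's strand, with E-boxes (CACGTG) and E-prime boxes (CACGTT or its complement AACGTG) in capitals. They lie at chr6:145865421-145865670 for Bhlhe41 (minus strand), chr11:69098699-69098948 for Per1 (plus strand), chr10:85185055-85185304 for Cry1 (minus strand) and chr11:98775378-98775627 for Nr1d1 (minus strand).
Bhlhe41: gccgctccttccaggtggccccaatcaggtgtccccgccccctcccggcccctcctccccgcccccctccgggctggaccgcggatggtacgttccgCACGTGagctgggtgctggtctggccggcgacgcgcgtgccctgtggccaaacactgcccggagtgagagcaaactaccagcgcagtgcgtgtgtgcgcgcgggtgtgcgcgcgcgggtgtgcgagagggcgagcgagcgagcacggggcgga
Per1: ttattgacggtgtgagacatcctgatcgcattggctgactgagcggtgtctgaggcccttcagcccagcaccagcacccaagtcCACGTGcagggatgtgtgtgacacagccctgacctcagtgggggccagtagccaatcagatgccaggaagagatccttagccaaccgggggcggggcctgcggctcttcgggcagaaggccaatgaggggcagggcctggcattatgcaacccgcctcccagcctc
Cry1: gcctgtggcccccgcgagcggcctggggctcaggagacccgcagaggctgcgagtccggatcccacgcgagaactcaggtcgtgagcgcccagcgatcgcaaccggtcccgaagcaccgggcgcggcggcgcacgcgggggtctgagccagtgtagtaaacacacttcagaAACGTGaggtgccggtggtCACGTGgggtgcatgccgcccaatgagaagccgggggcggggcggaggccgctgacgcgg
Nr1d1: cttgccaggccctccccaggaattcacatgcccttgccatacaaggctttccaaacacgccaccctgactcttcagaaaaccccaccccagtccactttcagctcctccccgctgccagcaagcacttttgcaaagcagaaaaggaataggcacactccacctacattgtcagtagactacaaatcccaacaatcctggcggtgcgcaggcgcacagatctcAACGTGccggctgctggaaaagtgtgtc

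The E-box of Bhlhe41 began 153 bases before the start, that of Per1 166 and that of Cry1 60, and Cry1 also held an E-prime box at 79 bases. Nr1d1 held an E-prime box at 28 bases and Cry2 at 166. The windows of Nr1d2, Clock and Arntl held neither. Among 32851 windows of this length over all genes, 6.02% held an E-box and 3.85% an E-prime box on either strand. No window of these genes at that start held a D-box (TTATGTAA or TTACGTAA; 0.931% of all windows), the core of a ROR and REV-ERB element (TAGGTCA or TGGGTCA; 5.38%) or a cAMP response element (TGACGTCA; 1.55%), also searched on both strands. The hypoxia response core ACGTG, which lies within every E-box, was in 16.6% of all windows. These are matches of exact letters, and binding was not measured. Other spellings of these elements, and sites at or after the start, were not looked for.

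Reads in genes numbered between 15615639 and 20283180 per library. All 8 macrophage markers looked up (Adgre1, Csf1r, Cd68, Lyz2, Itgam, Spi1, Cd14 and Fcgr1) were at 1 TPM or more in every library, with a summed level of 2850 to 3090 TPM in M0 and 2590 to 2640 TPM in M1. No marker of T cells, B cells, fibroblasts, epithelium, dendritic cells or osteoclasts was at that level in all libraries, and Cd3g, Cd8a, Krt8 and Krt18 were at 0 throughout. Summed osteoclast markers lay at 1.69 to 2.19 TPM in M0 and 0.179 to 0.431 TPM in M1, dendritic markers at 1.37 to 1.64 and 0.878 to 1.14 TPM, and fibroblast markers at 0.782 to 1.06 and 1.18 to 1.52 TPM, and their part in the results was not tested. The activation genes separated the groups: Cxcl10 lay at 2.50 to 3.20 TPM in M0 and 3105 to 3128 TPM in M1. Both scales below are needed for what follows, because the median log2 change of the 11297 tested genes was -0.31 on TPM as deposited and 0.00 once each library was divided by its median-of-ratios factor, called rescaled TPM here. On TPM 61.5% of tested genes were called lower in M1 and 18.7% higher, and on rescaled TPM 36.6% and 36.9%, so that 23.3% and 50.3% of calls were higher (limma-trend fitted to log2(TPM + 1), with p adjusted by Benjamini-Hochberg over all tested genes and called under 0.05). In bulk RNA, fewer cells expressing a gene and less RNA per cell cannot be told apart.

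Of the 10 genes, 7 reached 1 TPM in at least 3 samples and were tested. Of these 7, 5 were lower in M1 on TPM and none higher, beside 61.5% and 18.7% of all tested genes. The groups of these 5 did not overlap, which with M1 lower held for 61.8% of all tested genes. Both counts lie near these backgrounds and are no result about the clock genes. In size, Bhlhe41, Bhlhe40 and Per1 fell by at least 1 on the log2(TPM + 1) scale, as did 11.3% of all tested genes. On rescaled TPM 4 of the 7 were lower and none higher, beside 36.6% and 36.9% of all tested genes. These 4 were Bhlhe41, Bhlhe40, Per1 and, at a limma adjusted p of 0.037, Arntl, and the call of Nr1d2 was lost. The median log2 change of the 7 was -0.47 on TPM and -0.15 on rescaled TPM. Because Nr1d1, Per2 and Cry2 were below the filter, whole reads were recovered from TPM and transcript length and tested with limma-voom for genes with 10 reads or more, a test added after the data had been seen. It took in all 10 genes and called Bhlhe41, Bhlhe40, Nr1d1 and Per1 lower and Clock higher, where 32.2% of 14015 tested genes were lower and 34.0% higher.

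**Figure D1:**
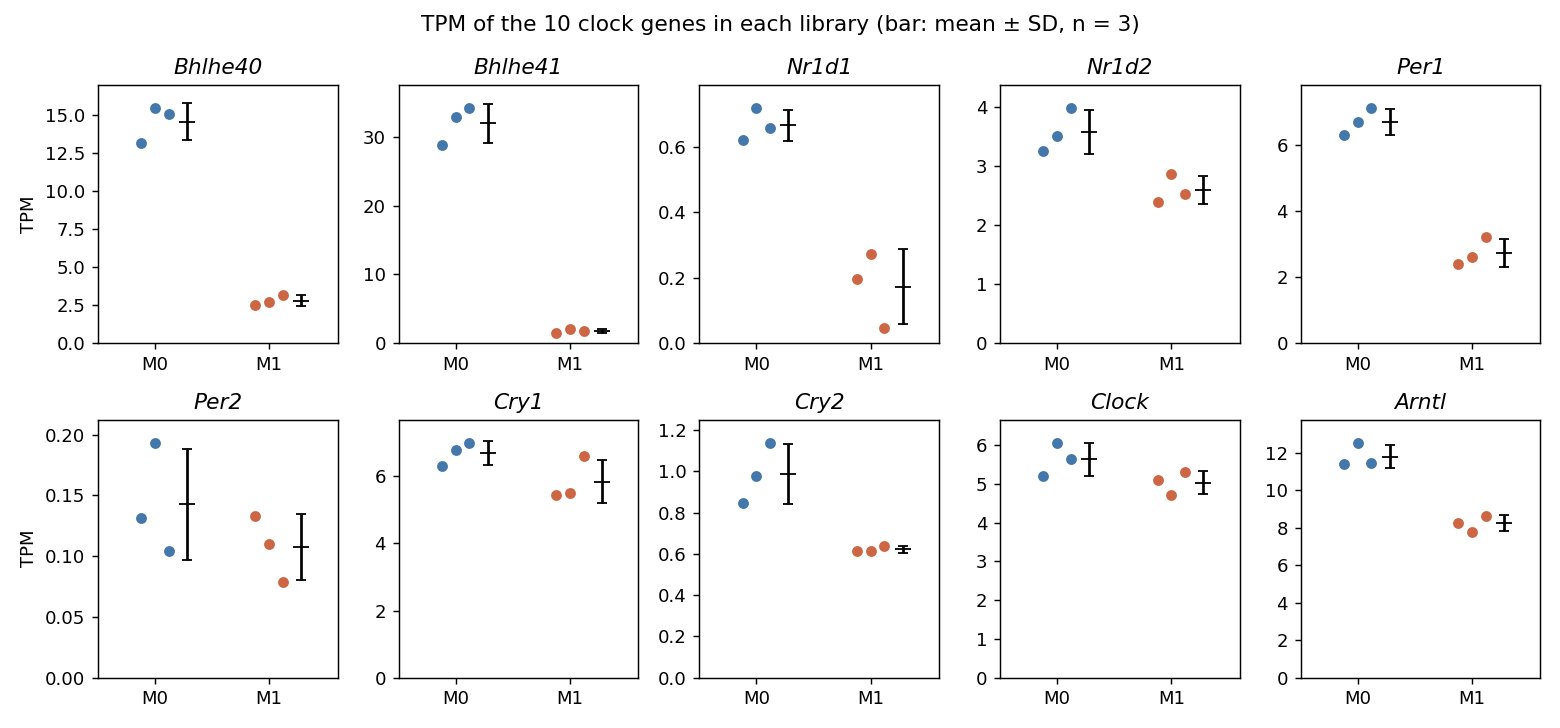
TPM (vertical axes, each from 0) of the 10 clock genes in the 3 M0 libraries (blue) and the 3 M1 libraries (orange), with the mean and SD beside the points. Bhlhe41, Bhlhe40, Per1, Nr1d1, Arntl, Nr1d2 and Cry2 show no overlap between groups, whereas Clock, Cry1 and Per2 overlap.

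The DEC repressors changed most. Bhlhe41 (NM_024469, chromosome 6, 145858243 to 145865420), DEC2, was at 28.8, 32.9 and 34.1 TPM in M0 replicates 1 to 3 and at 1.40, 1.98 and 1.74 TPM in M1 replicates 1 to 3. Every M1 library was below every M0 library by a wide margin, an 18.7-fold difference of means, with 8409 reads behind M0 and 504 behind M1. The log2 change was -3.61 (SE 0.09) on log2(TPM + 1), with a limma adjusted p of 2.1e-11, and only 2 of the 11297 tested genes had a lower one. On rescaled TPM it was -3.33 and the fourth lowest. Both ranks are of log2 values with 1 added to TPM, which shrinks the changes of genes near 0 in M1. By limma-voom the change of Bhlhe41 was -3.87, where the lowest of all tested genes was -5.79. Bhlhe40 (NM_011498, chromosome 6, 108660629 to 108666925), DEC1, was at 13.2, 15.4 and 15.1 TPM in M0 and at 2.49, 2.71 and 3.16 TPM in M1. The groups again lay far apart, and the log2 change was -2.04 (SE 0.09, limma adjusted p = 1.7e-09) on log2(TPM + 1) and -1.75 on rescaled values. It stood at place 121 from the lowest change on TPM and 119 on rescaled TPM. The authors' deposited table gave -3.86 for Bhlhe41 and -2.02 for Bhlhe40.

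Both DEC genes fell, and not to the same degree. Within a library the scaling cancels, and Bhlhe41 stood at 2.19, 2.13 and 2.27 times the TPM of Bhlhe40 in the M0 replicates but at 0.563, 0.73 and 0.55 times in the M1 replicates. DEC2 mRNA was thus the more abundant of the pair in all M0 libraries and the less abundant in all M1 libraries. The log2 ratio of TPM + 1 went from 1.08 ± 0.0434 to -0.487 ± 0.15 (mean ± SD, n = 3), a difference of -1.57 with an exact permutation p of 0.10, two-sided, the smallest that 3 against 3 can give (0.125 adjusted over the 5 pairs compared). An antisense gene, 0610040F04Rik, shares 118 exon bases with Bhlhe40 in GENCODE M21 and averaged 1.02 TPM in M0 against 0.304 in M1. Gm43909, antisense to Bhlhe41 over 1280 exon bases, is not a row of the table. The library kit named in the labels does not mark strand, so reads of such pairs cannot be told apart.

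The Period genes, which encode the main negative limb with the cryptochromes, were led by Per1. Per1 (NM_011065, chromosome 11, 69098949 to 69109957) was at 6.31, 6.70 and 7.12 TPM in M0 and 2.40, 2.60 and 3.21 TPM in M1. The M1 libraries were all lower, by 2.45-fold in the mean, and the log2 change was -1.05 (SE 0.09, limma adjusted p = 7.5e-07) on log2(TPM + 1) and -0.77 (SE 0.09, adjusted p = 1.5e-05) on rescaled values. This is the Per gene whose E-box is shown above. Per2 (NM_011066, chromosome 1, 91415982 to 91459328) was close to the limit of detection, at 0.131, 0.193 and 0.104 TPM in M0 and 0.133, 0.11 and 0.079 TPM in M1, or 37 and 31 reads over each group's libraries. The groups overlapped, and limma-voom gave a log2 change of -0.03 (adjusted p = 0.95). Its 95% interval was wide, from -0.83 to 0.77, and so takes in changes of that size in either direction. Per1 held 34.7 to 68.5 times the TPM of Per2 in M0 and 18.1 to 40.7 times in M1, with overlapping ranges. Per3, listed among the other clock factors, was at 0.893, 0.806 and 0.808 TPM in M0 and 0.189, 0.146 and 0.12 TPM in M1. All its M1 values were lower, and the limma-voom log2 change was -2.08 (adjusted p = 1.2e-06).

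The cryptochromes, partners of the PER proteins in repression, were not called on recovered reads, nor was Cry1 on TPM or rescaled TPM, where Cry2 was below the filter. Cry1 (NM_007771, chromosome 10, 85131700 to 85185054) was at 6.31, 6.80 and 6.99 TPM in M0 and 5.44, 5.50 and 6.60 TPM in M1. On TPM M1 replicate 3 lay within the M0 range and the others below it, whereas after rescaling all M1 libraries were above all M0 libraries. The log2 change was -0.17 on log2(TPM + 1), with a 95% interval from -0.35 to 0.01 (limma adjusted p = 0.072), and 0.13 with an interval from -0.04 to 0.29 on rescaled values (adjusted p = 0.14). Without M1 replicate 3 it was -0.25 on TPM and was called (adjusted p = 0.0094). It was also called on TPM with the replicate number as a block (adjusted p = 0.0499) and at equal TPM totals (-0.21, adjusted p = 0.036). Cry2 (NM_009963, chromosome 2, 92403647 to 92434069) was at 0.844, 0.977 and 1.14 TPM in M0 and 0.613, 0.612 and 0.64 TPM in M1. Its groups did not overlap on either scale. It had 172 reads over the M0 libraries and 122 over the M1 libraries, and limma-voom gave a log2 change of -0.27 (95% interval -0.66 to 0.11, adjusted p = 0.20), which was not called. Without a filter on TPM limma called it lower (-0.29 on log2(TPM + 1), adjusted p = 0.015). Cry1 had 6.15 to 7.47 times the TPM of Cry2 in M0 and 8.88 to 10.3 times in M1. The antisense gene D930015M05Rik shares 295 exon bases with Cry2 and averaged 0.231 TPM in M0 against 0.0677 in M1.

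The REV-ERB genes, which repress Arntl, were expressed at different levels. Nr1d2 (NM_011584, chromosome 14, 18204056 to 18239106) was at 3.25, 3.51 and 3.98 TPM in M0 and 2.39, 2.86 and 2.53 TPM in M1. The M1 libraries were all lower on TPM, by -0.35 on the log2 scale (SE 0.09, limma adjusted p = 0.0031), close to the median of all tested genes. On rescaled TPM the groups overlapped and the change of -0.09 was not called (adjusted p = 0.37). Nr1d1 (NM_145434, chromosome 11, 98767932 to 98775377) was at 0.623, 0.719 and 0.658 TPM in M0 and 0.195, 0.274 and 0.047 TPM in M1. Every M1 library was below every M0 library, with 81 reads in M0 (95% Poisson interval 64.3 to 101) and 24 reads in M1 (15.4 to 35.7), intervals of counting error only. M1 replicate 3 held 2 of these reads.

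The limma-voom log2 change of Nr1d1 was -1.77 (SE 0.44, adjusted p = 0.0019), and -1.10 (adjusted p = 0.011) without M1 replicate 3. The authors' deposited table gave -1.56 with an adjusted p of 0.0057. The 3′ end of Nr1d1 runs opposite to Thra, the thyroid hormone receptor α gene, and the genes share 263 of 3077 Nr1d1 exon bases in GENCODE M21. Thra itself was lower in M1, at 1.13 ± 0.291 TPM beside 5.82 ± 0.458 in M0 (log2 change -1.69, limma adjusted p = 3.7e-08). The transcript behind this Thra value (NM_178060) ends at 98765113, before that of Nr1d1 begins at 98767932. By these coordinates the Thra value does not cover the shared bases. As strand was not read, the part of Thra in the Nr1d1 value was not tested. In a library, Nr1d1 stood at 0.165 to 0.205 times the TPM of Nr1d2 in M0 and 0.0186 to 0.0957 times in M1. The log2 ratio of TPM + 1 overlapped between groups, with a difference of -0.164 (exact permutation p = 0.20).

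The activators Clock and Arntl differed by 1.12-fold and 1.43-fold in mean TPM. Arntl (NM_001243048, chromosome 7, 113207465 to 113314126), which encodes BMAL1, was at 11.4, 12.5 and 11.5 TPM in M0 and 8.27, 7.79 and 8.64 TPM in M1. All M1 libraries were lower on both scales, and on log2(TPM + 1) the change was -0.47 (SE 0.07, limma adjusted p = 4.9e-05). On rescaled TPM the change was -0.15 (SE 0.06, adjusted p = 0.037). That call was lost when any library but M1 replicate 3 was left out, with changes from -0.12 to -0.18 and adjusted p of 0.05 to 0.138. On recovered reads limma-voom called it over the 11297 genes of the TPM filter (-0.17, adjusted p = 0.035) and not over the genes with 10 reads or more (-0.16, adjusted p = 0.059). In the authors' deposited table the change was -0.14, with an adjusted p of 0.25.

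Clock (NM_001305222, chromosome 5, 76209868 to 76303502), the partner of BMAL1 and an acetyltransferase, was at 5.22, 6.06 and 5.63 TPM in M0 and 5.10, 4.71 and 5.30 TPM in M1. The groups overlapped on TPM (log2 change -0.14, 95% interval -0.30 to 0.03, limma adjusted p = 0.12). After rescaling all M1 libraries were higher and the sign turned, to 0.16 (adjusted p = 0.062), which was called without M0 replicate 2 (0.20, adjusted p = 0.047). The recovered reads gave 0.20 (95% interval 0.07 to 0.33, adjusted p = 0.0087). Clock was at 0.19 in the authors' deposited table (adjusted p = 0.035). The direction of Clock therefore depends on the scaling. The ratio of the partners does not: Arntl was at 2.18, 2.07 and 2.03 times the TPM of Clock in the M0 replicates and at 1.62, 1.65 and 1.63 times in the M1 replicates. The log2 ratio of TPM + 1 moved by -0.334, more than the SDs of 0.0444 and 0.00949, with an exact permutation p of 0.10, again the smallest possible.

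**Figure D2:**
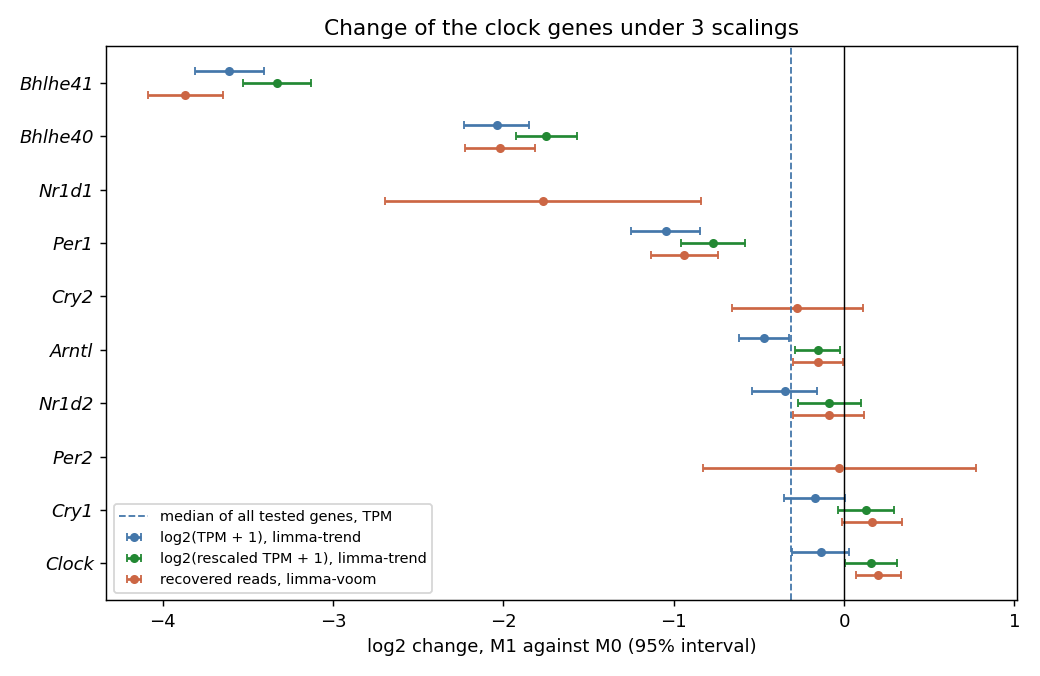
Log2 change of each clock gene in M1 against M0 (horizontal axis) with its 95% interval, from TPM (blue), rescaled TPM (green) and recovered reads (orange), with the median of all tested genes on TPM as a dashed line. Bhlhe41, Bhlhe40, Per1, Arntl and Nr1d2 lie below 0 on all 3, while Cry1 and Clock cross from below 0 on TPM to above 0 on the others. The intervals of Nr1d2 include 0 on rescaled TPM and recovered reads.

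The order of the genes by level changed with the state. In M0 it ran from Bhlhe41 at 31.9 TPM through Bhlhe40 at 14.6, Arntl at 11.8, Per1 at 6.71, Cry1 at 6.70, Clock at 5.64, Nr1d2 at 3.58, Cry2 at 0.986 and Nr1d1 at 0.667 to Per2 at 0.143 TPM, all group means. Only Per1 and Cry1 overlapped with their neighbour. In M1 the order was Arntl at 8.23, Cry1 at 5.85, Clock at 5.03, Bhlhe40 at 2.79, Per1 at 2.74, Nr1d2 at 2.60, Bhlhe41 at 1.71, Cry2 at 0.622, Nr1d1 at 0.172 and Per2 at 0.107 TPM. Bhlhe40, Per1 and Nr1d2 overlapped there, each with the next, as did Nr1d1 with Per2. Bhlhe41 went from the first place to the seventh.

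Summed over the 10 genes, the level was 76.0, 85.8 and 86.3 TPM in M0 and 28.4, 29.2 and 32.0 TPM in M1. Most of that difference was in the DEC genes. Bhlhe40 and Bhlhe41 together made up 55.2%, 56.4% and 57.0% of the sum in M0 and 13.7%, 16.1% and 15.3% in M1. Clock and Arntl made up 21.9%, 21.6% and 19.8% in M0 and 47.0%, 42.9% and 43.6% in M1. The share of Cry1 and Cry2 went from 9.29% ± 0.205 to 21.6% ± 0.908, of Nr1d1 and Nr1d2 from 5.13% ± 0.226 to 9.31% ± 1.36, and of Per1 and Per2 from 8.29% ± 0.232 to 9.51% ± 0.717 (mean ± SD, n = 3). None of these shares overlapped between groups (exact permutation p = 0.10 each, the smallest possible). They add up to the whole, so a loss in the DEC genes raises the others, and they do not depend on the scaling between libraries.

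**Figure D3:**
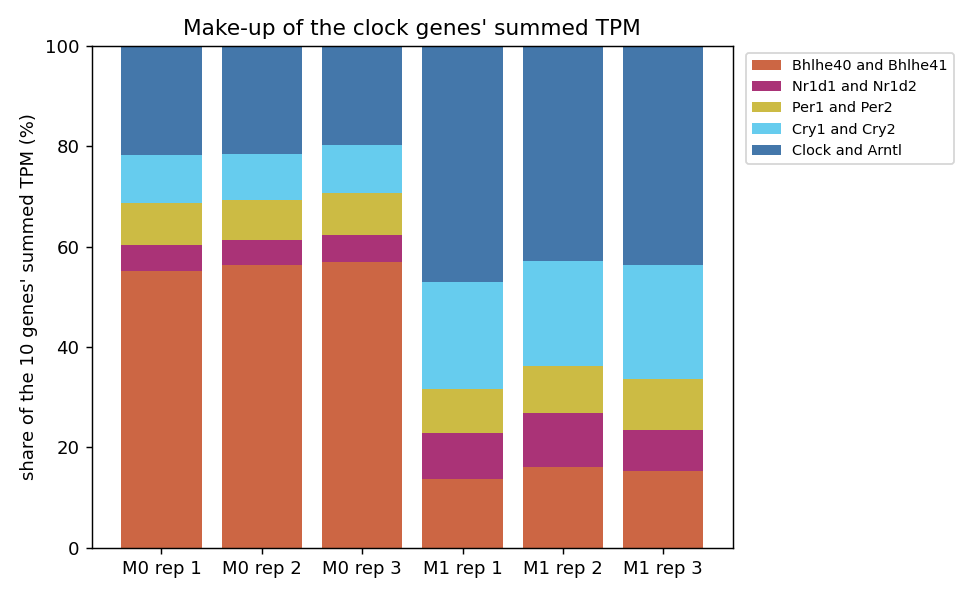
Share of the 10 genes' summed TPM (vertical axis, percent) held by each pair of clock genes in each of the 6 libraries. The share of Bhlhe40 and Bhlhe41 is 55.2% to 57.0% in M0 and 13.7% to 16.1% in M1, and Clock and Arntl hold 42.9% to 47.0% in M1.

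Those other transcription factors of the clock that were tested were lower as well. Of 11 in the list, 4 were expressed highly enough to be tested. All 4 were lower on TPM and on rescaled TPM, with a median log2 change of -1.18 and -1.0, where 61.5% and 36.6% of all tested genes were lower. Rora and Dbp reached 1 TPM only in M0 libraries and so passed the filter through the group where they were high. Their lower TPM in M1 was thereby fixed, and the count and the median rest partly on the filter. Rora, the receptor that activates Arntl, was at 2.31, 2.33 and 2.43 TPM in M0 and 0.384, 0.273 and 0.259 TPM in M1 (log2 change -1.36). Limma-voom, which does not use the TPM filter, gave Rora a log2 change of -2.59 (adjusted p = 4.0e-11). Tef, a PAR bZIP activator of D-box genes, was at 5.68, 6.15 and 6.11 TPM in M0 and 1.25, 1.44 and 1.36 TPM in M1 (log2 change -1.57, limma adjusted p = 4.4e-09). The groups of Rora and of Tef did not overlap, which with M1 lower held for 61.8% of all tested genes. For Rora this was also a condition for naming it. Dbp, the best known E-box output of the clock and a relative of Tef, was at 2.47, 1.74 and 3.48 TPM in M0 and 0.891, 0.73 and 0.626 TPM in M1 (log2 change -1.0). For Dbp limma-voom gave -1.31 (adjusted p = 0.0009). Its M0 libraries were widely spread, and that all lay above M1 was fixed by the filter. Nfil3, which encodes E4BP4, the repressor at D-boxes, fell by 0.70 on the log2(TPM + 1) scale and by 0.37 after rescaling.

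The remaining factors were low. Hlf, another PAR bZIP gene, had 23 reads over the M0 libraries and 18 over the M1 libraries, with overlapping groups. Ciart, a repressor of CLOCK and BMAL1, was at 1.15, 0.999 and 0.653 TPM in M0 and 0.387, 0.461 and 0.33 TPM in M1, and limma-voom did not call it (log2 change -0.83, adjusted p = 0.051). Npas2, which can stand in for Clock, had 2 reads in M0 and 1 in M1. Arntl2 had 13 and 19 reads and Rorb 12 and 13. By limma-voom, 5 of 9 were lower and none higher, Per3 being the one added, beside 32.2% lower and 34.0% higher over all genes it tested.

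**Figure D4:**
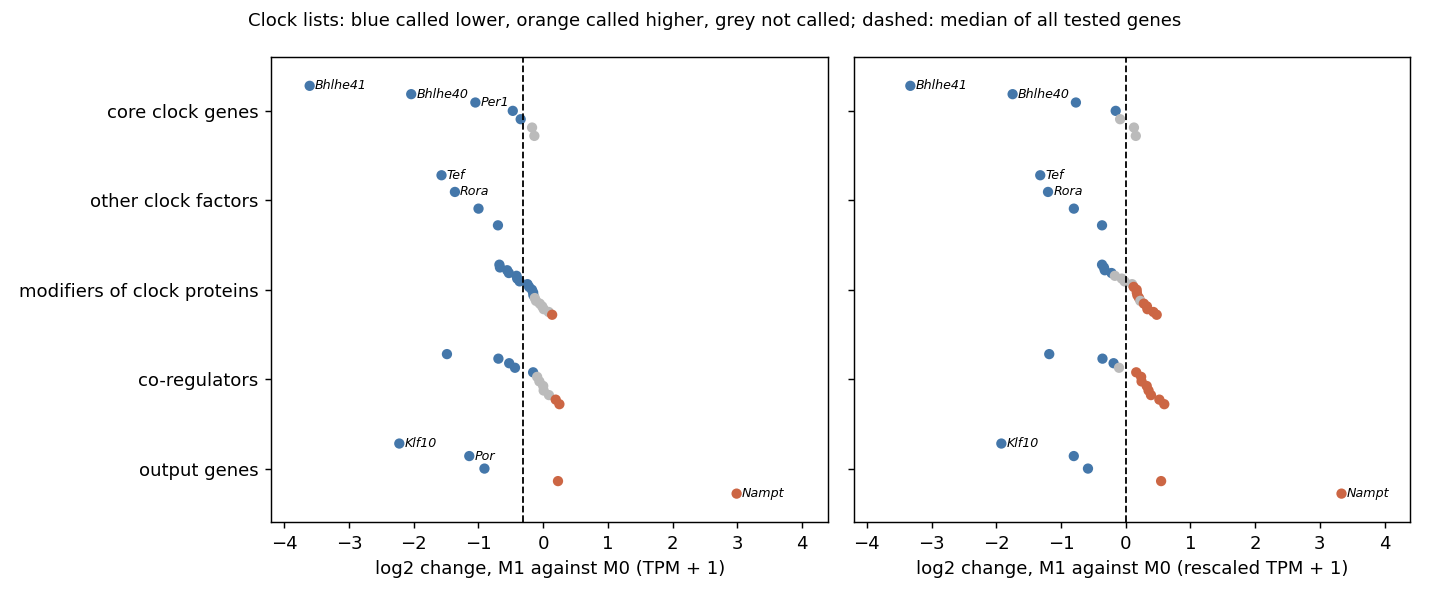
Log2 change in M1 against M0 (horizontal axis) of each tested gene in the core clock genes and 4 lists of other clock genes, on TPM (left) and rescaled TPM (right), coloured by call, with the median of all tested genes as a dashed line. On rescaled TPM 10 of 19 modifiers and 8 of 12 co-regulators are called higher, beside 36.9% of all tested genes. The 4 other clock factors tested lie below 0 there, and Rora and Dbp among them passed the filter only through M0.

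Enzymes that act on clock proteins differed in direction with the scale. Of 21 kinases, phosphatases, ubiquitin ligases and ubiquitin proteases, 19 were tested, of which 12 were lower and 1 higher on TPM, against 4 and 10 on rescaled TPM. The shares over all tested genes were 61.5% lower and 18.7% higher on TPM, and 36.6% and 36.9% on rescaled TPM. None of the 19 changed by as much as 1 on the log2 scale. The median was -0.17 on TPM and 0.17 after rescaling, beside -0.31 and 0.00 for all tested genes. Called lower on both scales were Csnk1e and Gsk3b, kinases that mark PER and other clock proteins, Fbxw7, and Usp2, with log2 changes of -0.67, -0.68, -0.53 and -0.56 on TPM. Fbxw7 lost its call on rescaled TPM without M0 replicate 2, M0 replicate 3 or M1 replicate 1 (adjusted p from 0.0677 to 0.0729). The ligase Fbxw11, which marks PER proteins for destruction, was higher on TPM (0.14, limma adjusted p = 0.033) and on rescaled TPM (0.48). Its TPM call was lost without M0 replicate 1, M0 replicate 3 or M1 replicate 3 (adjusted p of 0.0634 to 0.108). Csnk1d, the other main PER kinase, was lower on TPM (-0.22) and higher on rescaled TPM (0.12). The latter call was lost when any library but M1 replicate 1 was left out (adjusted p of 0.0515 to 0.136). Csnk1a1, at 79.5 ± 2.91 and 84.4 ± 4.77 TPM, and Ppp1cb, at 79.9 ± 2.84 and 79.1 ± 1.46 TPM, were the most abundant ones without a call on TPM. Both were higher on rescaled TPM (0.43 and 0.33, limma adjusted p = 1.1e-05 and 3.2e-05).

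Among 12 co-regulators, 5 were lower and 2 higher on TPM, against 3 and 8 on rescaled TPM. Of all tested genes 61.5% were lower and 18.7% higher on TPM, and 36.6% and 36.9% on rescaled TPM. Hdac3, the deacetylase through which REV-ERBα represses, was lower on both scales (-0.69 and -0.36), as was Wdr5 (-0.53 and -0.19). Ncor1, the usual partner of REV-ERBα, was lower on TPM (-0.44) and not called after rescaling (-0.10), though it was called there without M1 replicate 3 (-0.16, adjusted p = 0.032). Sfpq and Kdm5a, which encode partners of PER and of CLOCK and BMAL1, were higher on both scales (0.25 and 0.60, and 0.19 and 0.52). The TPM call of Kdm5a was lost without M0 replicate 1 (adjusted p = 0.063). Nono, at 149 ± 1.67 and 150 ± 2.3 TPM, was the most abundant without a call on TPM and was higher after rescaling (0.35).

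Output genes moved both ways. Of 7, 5 were tested, with 3 lower and 2 higher on both scales, beside 61.5% lower and 18.7% higher of all tested genes on TPM and 36.6% and 36.9% on rescaled TPM. Nampt, the NAD-producing enzyme under clock control, was at 71.4, 76.0 and 72.4 TPM in M0 and 598, 580 and 587 TPM in M1 (log2 change 2.99, limma adjusted p = 1.7e-13). Klf10 was at 18.5, 20.9 and 19.7 TPM in M0 and 3.05, 3.94 and 3.34 TPM in M1 (log2 change -2.22, adjusted p = 5.9e-10). Por, the electron donor of cytochromes P450, was at 63.9, 72.0 and 71.1 TPM in M0 and 28.7, 29.9 and 33.6 TPM in M1 (log2 change -1.14, adjusted p = 2.8e-08). A lack of overlap between groups was a condition for naming these genes. Wee1, a kinase that holds back mitosis, fell by 0.91 and by 0.58 after rescaling. Noct, which encodes nocturnin, was higher on TPM (0.23, limma adjusted p = 0.018) but not without M0 replicate 1 or M1 replicate 3 (adjusted p = 0.073 and 0.056), and was higher after rescaling (0.55).

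The genes nearest to each called clock gene were taken as those with the smallest root mean square difference of log2(TPM + 1), each centred on its mean over the 6 samples, a measure set mainly by the difference between groups. For Bhlhe41 these were Kif21b and Cxcr4, at 0.122 and 0.129 log2 units. Bhlhe40 lay closest to Mknk2 (0.0313) and Fhod1 (0.0419), and Per1 to Map3k14 (0.0342). Arntl lay closest to Pomt2 (0.0148) and Prkce (0.0181), and Nr1d2 to Elac1 (0.0136) and Fzr1 (0.0356). None of these neighbours was a clock gene. The distance for Bhlhe41 was the largest of the 5, and Kif21b, its nearest gene, went from 45.5 ± 3.87 to 2.85 ± 0.35 TPM.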

How the data were processed

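RNA from 3 M1 and 3 M0 samples of RAW264.7 cells had been poly(A)-selected and made into libraries with a kit that does not mark strand, per the labels' protocols. Tools listed in the submitters' processing notes, with roles unstated, are HOMER 4.11.1, STAR 2.7.5a, DESeq2 and bcl2fastq, and the build is mm10. The authors deposited TPM per gene (25124 genes, 1 transcript each, column sums of 551257 to 572349). A further table of the authors holds log2 values whose transform is not stated, beside a p-value, raw and adjusted, and a log2 fold change that the authors computed. That change is M1 against M0 by the table's own columns, although its header names M0 first.

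The test was limma 3.58.1 (R 4.3.3; trend and robust empirical Bayes, 4 residual degrees of freedom before moderation) on log2(TPM + 1), over the 11297 genes with 3 or more samples at 1 TPM or above, with group as the only term and Benjamini-Hochberg adjustment over all of them, called under 0.05. A fold is the ratio of mean TPM. Rescaled TPM is TPM divided by median-of-ratios factors (0.879 to 1.14). TPM times transcript length was a whole multiple of 1 value per library, within 0.1, for 99.8% to 99.99% of values above 0, and those whole reads entered limma-voom. Read numbers cover counting error only. No replicate pair agreed within sampling noise (chi-square over its degrees of freedom, 1.55 to 7.9). Mir7676-1 and Mir7676-2, on opposite strands of the same place, had identical TPM in all 6 libraries. Exact permutation tests of 3 against 3 are two-sided and cannot go below 0.10.

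The clock genes and the lists (other factors, modifiers, co-regulators, output genes, cell type markers) were chosen with earlier results of these data known. Named were all 10 members, Nfil3, Dbp, Tef and Hlf, list members called with a log2 change of at least 1 and no overlap, the most abundant without a call, and the 2 nearest genes of each called member. Other genes of these lists were named after their values were seen, and some that the rule names are not reported here. Motifs were searched in the 250 bases before each RefSeq start. Alternatives were pseudocounts of 0.1 and 0.5, no filter or one at 5 TPM, both rescalings, limma with neither trend nor robust fitting, a replicate block, the authors' log2 columns, recovered reads, and leaving out each library.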

Additional observations from a re-analysis of the deposited data

How the results depend on the processing

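Bhlhe41, Bhlhe40 and Per1 were lower and called in each of 18 alternatives, with log2 changes of -4.16 to -3.33, -2.35 to -1.75 and -1.27 to -0.77. Arntl was called lower in 15 of 18 and Nr1d2 in 12 of 17. Most of these alternatives keep the TPM scale, where the median log2 change of all tested genes was -0.31. Nr1d2 lost its call on rescaled TPM with or without a replicate block, the authors' columns and recovered reads (limma adjusted p 0.345 to 0.447). In those settings Arntl was called only on rescaled TPM without a block (0.037) and on recovered reads over the TPM filter's genes (0.035). Of the tested clock genes, 3 were lower with rescaling and a replicate block and 3 on the authors' log2 columns, against 5 on TPM. The count was 7 without a filter, which called Nr1d1 and Cry2 too, 6 at equal TPM totals, with the replicate block or without M1 replicate 3, and 4 to 5 in the others; 1 was higher on those columns and on recovered reads with either filter. On rescaled TPM, leaving out a library gave 0 to 1 higher. Cry1 turned to 0.13 on rescaled TPM with or without the block, 0.14 on the authors' columns, and 0.15 and 0.16 on recovered reads. Clock turned to 0.16, 0.16, 0.19, 0.19 and 0.20 in the same settings. Replicate numbers did not pair the samples (same-number correlations of deviations 0.071, -0.076 and 0.037). The replicate block on TPM called 7016 genes lower and 2143 higher and, of the clock genes and lists named, changed the call of Cry1 alone.

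In the order rescaled TPM, the same with a block, the authors' columns and recovered reads, all genes called lower numbered 4131, 4121, 3865 and 4152 (6944 on TPM) and higher 4173, 4223, 4152 and 4242 (2111). Modifiers lower numbered 4, 4, 5 and 5, and higher 10, 11, 12 and 11. Co-regulators lower numbered 3 in each and higher 8 in each. Modifiers higher were 0 without a filter, at equal TPM totals or without trend and robust fitting, and 0 to 1 with a library left out. Co-regulators higher were 1 at equal totals and 1 to 2 with a library left out. Output genes higher were 1 on the authors' columns and 1 to 2 with a library left out. Other factors lower were 2 with a filter of 5 TPM, which tests fewer genes. Without a pseudocount the ratio differences were -1.85 for Bhlhe41 over Bhlhe40, -1.83 for Nr1d1 over Nr1d2 (-0.164 with it) and 0.454 for Cry1 over Cry2. Depth limits Per2, Nr1d1 and Cry2.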
